A study of Mus musculus with 10 samples.

Results

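Fatty acid desaturases and elongases of the polyunsaturated and very long chain routes were examined in visceral fat of mice with and without serglycin. The 7 genes were Fads1, Fads2, Fads3, Elovl1, Elovl3, Elovl5 and Elovl7, taken by symbol from a table of 23930 genes. All 7 were present, and all 7 passed the filter on low counts that left 12719 genes to test. Epididymal white adipose tissue, the fat depot beside the epididymis, came from male C57BL/6 mice aged 18 weeks after 8 weeks on a high sucrose/high fat diet. The tested animals were 5 Srgn-/- mice, which lack the proteoglycan serglycin, and the controls were 5 Srgn+/+ mice on the same diet. Whole pieces of fat were used, so that a level is a sum over fat cells, immune cells, vessels and other tissue. In such samples fewer cells of a type and less RNA per cell cannot be told apart.

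Polyunsaturated fatty acids from the diet are lengthened and desaturated in turn before they enter phospholipids or are made into eicosanoids. Fads2 makes the first desaturation of that chain, Elovl5 the elongation that follows, and Fads1 the desaturation that yields arachidonic and eicosapentaenoic acid. Fads3 puts a double bond into the sphingoid base of sphingolipids. Elovl1, Elovl3 and Elovl7 lengthen saturated and monounsaturated chains towards very long chain fatty acids, and Elovl3 is known for its induction by cold in brown fat. In the mouse annotation of assembly GRCm38, Fads3, Fads2 and Fads1 stood next to each other on chromosome 19.

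No member passed the threshold of the genotype comparison. Fads2 and Elovl7 had the largest differences, with levels 1.65-fold and 2.29-fold higher in Srgn-/- fat and edgeR adjusted p = 0.314 and 0.309. Their high values lay in the same 3 Srgn-/- libraries, and across all 10 libraries Fads2 and Elovl7 varied together. Fads1, Fads3, Elovl1, Elovl3 and Elovl5 had folds between 0.980 and 1.06, each with an interval that held 1.

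Promoter sequences of Fads2 and Elovl7, which varied together, and of Elovl5, the member with the smallest range, are shown for the letters at their starts. They are from the RefSeq promoter table of build GRCm38.p6, read 5′ to 3′ on the strand of the gene, from 250 bases before the start to 50 bases after it. That table held promoters for 5 of the 7 members. Capitals mark matches on either strand to CACNCCAC, the core of the sterol regulatory element, to CCAAT, to the E-box CACGTG and to the GC box GGGCGG. No matches overlapped in these 3 sequences. The first is Fads2 (chr19:10101454-10101753, minus strand), the second Elovl7 (chr13:108214154-108214453, plus strand) and the third Elovl5 (chr9:77917115-77917414, plus strand).
Fads2: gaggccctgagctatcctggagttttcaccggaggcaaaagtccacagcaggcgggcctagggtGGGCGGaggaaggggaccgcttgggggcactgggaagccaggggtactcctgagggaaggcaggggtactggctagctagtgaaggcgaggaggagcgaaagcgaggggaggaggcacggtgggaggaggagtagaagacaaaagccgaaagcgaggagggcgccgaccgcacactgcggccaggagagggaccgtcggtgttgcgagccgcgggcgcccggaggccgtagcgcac
Elovl7: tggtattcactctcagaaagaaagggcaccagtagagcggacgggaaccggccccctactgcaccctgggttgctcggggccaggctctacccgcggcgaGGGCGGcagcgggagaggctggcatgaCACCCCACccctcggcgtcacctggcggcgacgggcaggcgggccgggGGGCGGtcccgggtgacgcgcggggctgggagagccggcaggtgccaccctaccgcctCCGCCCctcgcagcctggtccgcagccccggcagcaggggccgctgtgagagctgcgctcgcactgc
Elovl5: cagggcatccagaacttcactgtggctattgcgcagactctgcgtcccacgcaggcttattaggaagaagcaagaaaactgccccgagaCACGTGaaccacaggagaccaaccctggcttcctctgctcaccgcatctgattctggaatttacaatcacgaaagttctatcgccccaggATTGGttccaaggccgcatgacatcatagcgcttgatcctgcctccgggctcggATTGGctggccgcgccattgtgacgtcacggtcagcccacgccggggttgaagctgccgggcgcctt

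The Fads2 window held 1 GC box and no other match. The Elovl7 window held 1 sterol element core, which 6.24% of the 32851 promoters of the table held, and 3 GC boxes, a motif found in 35.7% of promoters. The Elovl5 window held 1 E-box, present in 7.15% of promoters, and 2 CCAAT boxes, present in 37.4%. A match describes letters and is no evidence of binding. The files used here give 1 amplicon per gene, without its position, and the files' build is mm9, so that no coordinate of an amplicon is given.

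Each library was read by Ion AmpliSeq, a method that amplifies 1 short target per gene. The 10 libraries held 7824764 to 10757779 reads. Levels are given as CPM, counts brought to a common library size with edgeR's TMM factors. Since amplicons differ in efficiency, levels of different genes are not compared. Srgn itself had 0 to 1.31 CPM in Srgn-/- fat and 74.7 to 133 CPM in Srgn+/+ fat, with 12 reads in Srgn-/- 5 and 0 to 3 reads in the other Srgn-/- libraries, and it was the sole gene of 12719 past the threshold, or 0.00786%, by the edgeR quasi-likelihood test (adjusted p = 9.44e-05). The fat-cell markers, among them Adipoq, Plin1 and Fabp4, summed to 45087 to 67250 CPM in Srgn-/- and 45853 to 75064 CPM in Srgn+/+ fat. RNA typical of the epididymis, summed over 20 marker genes, stood at 8968 CPM in Srgn-/- 3, 1030 CPM in Srgn-/- 5 and 1017 CPM in Srgn+/+ 4, against 1.05 to 28.9 CPM in the other libraries. Values without these 3 libraries, which leave 3 Srgn-/- and 4 Srgn+/+ libraries, are given beside the results they move most.

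Fads2 had 24.3, 44.7, 65.4, 25.1 and 47.2 CPM in Srgn-/- 1 to 5, against 22.5, 21.02, 34.5, 25.1 and 22.2 CPM in Srgn+/+ 1 to 5. Srgn-/- 2, 3 and 5 lay above every Srgn+/+ library, while Srgn-/- 1 and 4 lay within the Srgn+/+ range. The means were 41.3 ± 17.1 CPM in Srgn-/- and 25.1 ± 5.49 CPM in Srgn+/+ (SD, n = 5 each). The log2 fold change was 0.72 (SE 0.268, 95% interval 0.13 to 1.31), with an edgeR adjusted p = 0.314 over all tested genes. Each library gave 167 to 549 reads for Fads2, and counting error alone would give a coefficient of variation of 5.22% in Srgn-/-, where the observed one was 41.5%. Without the 3 libraries that held epididymis RNA, a setting added once the data had been seen, the log2 fold change was 0.32 (edgeR adjusted p = 0.999). That setting takes out Srgn-/- 3 and 5, which lay above every Srgn+/+ library, and Srgn+/+ 4, at 25.1 CPM. The part of epididymis RNA in this fall was not tested.

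Fads1, which acts after Fads2 in the same chain, had 73.6, 84.2, 115.6, 57.5 and 75.3 CPM in Srgn-/- 1 to 5, against 121.4, 67.1, 69.6, 74.9 and 80.9 CPM in Srgn+/+ 1 to 5. The groups overlapped almost wholly, with 1 high library in each, Srgn-/- 3 and Srgn+/+ 1. The means were 81.3 ± 21.5 CPM in Srgn-/- and 82.8 ± 22.2 CPM in Srgn+/+ (SD, n = 5 each), and the 95% interval of the fold ran from 0.724 to 1.33 (edgeR adjusted p = 0.967). The sign of this difference turned with the scaling of libraries and is not given a direction.

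Fads3 had 777.6, 685.8, 741.3, 859.0 and 737.4 CPM in Srgn-/- 1 to 5, against 553.2, 767.4, 738.6, 807.3 and 709.0 CPM in Srgn+/+ 1 to 5. Apart from the low Srgn+/+ 1, the libraries of both genotypes lay in 1 band. The means were 760.2 ± 64.2 CPM in Srgn-/- and 715.1 ± 97.5 CPM in Srgn+/+ (log2 fold change 0.088, edgeR adjusted p = 0.771; SD, n = 5 each). The 95% interval of the fold was 0.896 to 1.26.

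Elovl5, the elongase of the polyunsaturated chain, had the smallest range over the 10 libraries. It had 173.7, 147.2, 176.7, 191.4 and 186.0 CPM in Srgn-/- 1 to 5, against 159.7, 166.6, 187.6, 180.9 and 176.6 CPM in Srgn+/+ 1 to 5. Its highest library was 1.30 times its lowest. Within Srgn-/- its coefficient of variation was 9.76%, against 8.44% for Fads3. The genotype means of 175.0 ± 17.1 CPM in Srgn-/- and 174.3 ± 11.2 CPM in Srgn+/+ differed by less than either SD (n = 5 each). The 95% interval of the fold was 0.878 to 1.15 (edgeR adjusted p = 0.983), which bounds the difference more tightly than for any other member.

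Elovl1, which makes saturated very long chains for sphingolipids, had 105.1, 81.0, 70.8, 97.7 and 87.6 CPM in Srgn-/- 1 to 5, against 71.8, 101.8, 93.4, 96.7 and 87.6 CPM in Srgn+/+ 1 to 5. Its low libraries were Srgn-/- 3 and Srgn+/+ 1, the same ones in which Fads1 was high. The means were 88.4 ± 13.5 CPM in Srgn-/- and 90.2 ± 11.5 CPM in Srgn+/+ (SD, n = 5 each), and the 95% interval of the fold was 0.813 to 1.18 (edgeR adjusted p = 0.944). Its sign also turned with the scaling.

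Elovl3 had the widest range. It had 2.65, 0.220, 1.67, 5.23 and 7.76 CPM in Srgn-/- 1 to 5, against 0.0962, 1.53, 6.70, 4.23 and 3.98 CPM in Srgn+/+ 1 to 5. Its highest library was 80.6 times its lowest, but Srgn+/+ 1 held 1 read and Srgn-/- 2 held 2 reads, so that this ratio rests on very few reads. Both genotypes spanned nearly the whole range, with means of 3.51 ± 3.0 CPM in Srgn-/- and 3.31 ± 2.56 CPM in Srgn+/+ (SD, n = 5 each). The 95% interval of the fold, 0.293 to 3.86, is too wide to place Elovl3 on either side (edgeR adjusted p = 0.976).

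Elovl7, an elongase of saturated chains, had 2.06, 3.85, 2.98, 1.40 and 4.26 CPM in Srgn-/- 1 to 5, against 0.674, 0.573, 2.54, 1.37 and 1.19 CPM in Srgn+/+ 1 to 5. Srgn-/- 2, 3 and 5 lay above every Srgn+/+ library, as they did for Fads2, and Srgn+/+ 3 was the highest of its genotype for both genes. The means were 2.91 ± 1.20 CPM in Srgn-/- and 1.27 ± 0.785 CPM in Srgn+/+ (SD, n = 5 each). The log2 fold change was 1.19 (SE 0.444, 95% interval 0.23 to 2.16), with an edgeR adjusted p = 0.309 over all tested genes. These levels came from 6 to 39 reads per library, which limits their precision. Without the 3 libraries with epididymis RNA the log2 fold change was 0.97 (edgeR adjusted p = 0.999). That setting again takes out Srgn-/- 3 and 5, which lay above every Srgn+/+ library.

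**Figure D1:**
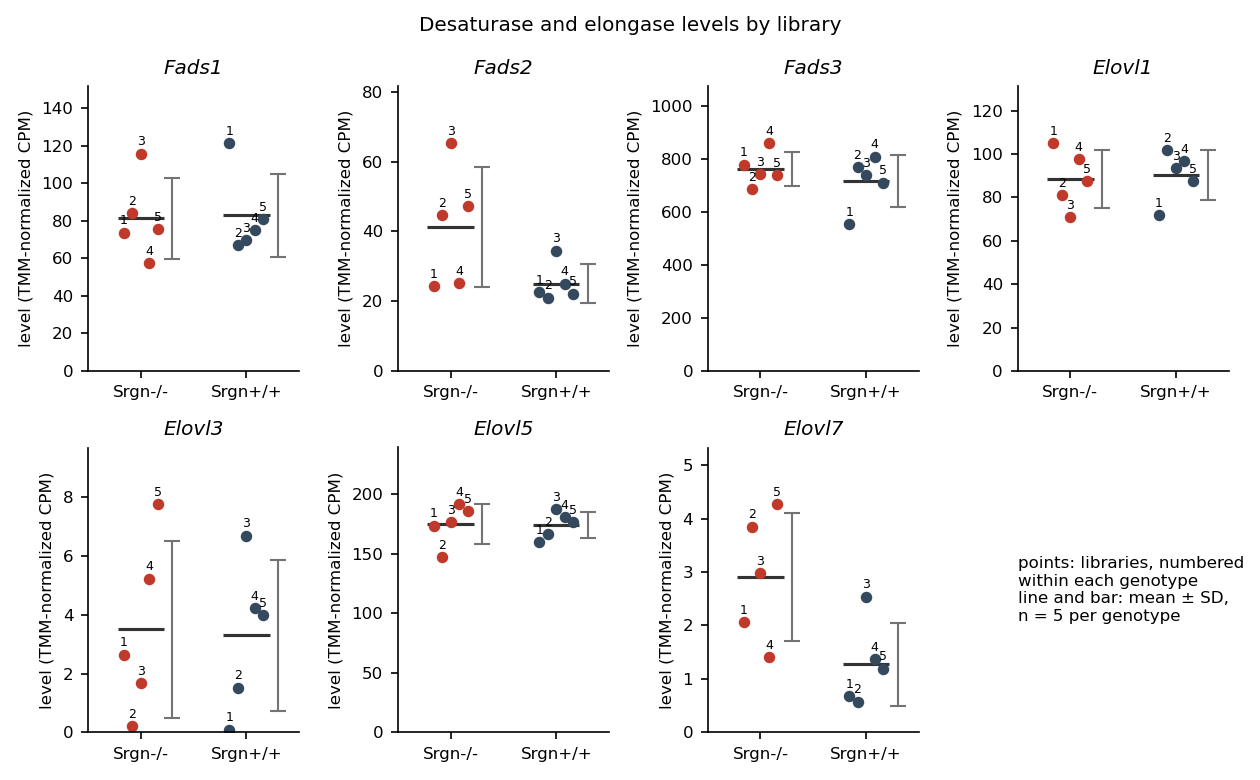
Level of each of the 7 genes (TMM-normalized CPM, axes from 0) in the 5 Srgn-/- and 5 Srgn+/+ libraries, numbered within genotype, with mean ± SD beside the points. Srgn-/- 2, 3 and 5 stand above all Srgn+/+ libraries for Fads2 and Elovl7, and the groups overlap for all 7 genes.

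Of the 7 members, 0 rose and 0 fell at the adjusted threshold in edgeR. An unadjusted edgeR p under 0.05 was found for 2 members, Fads2 and Elovl7, both with higher values in Srgn-/-. Over all tested genes 12.8% had such a p, 6.77% with higher and 6.06% with lower values. Values were higher in Srgn-/- for 5 of 7 members and for 49.7% of all tested genes. Among those 5, the sign of Elovl3 turned in 5 and that of Elovl5 in 6 of 19 alternative settings. DESeq2 called 0 members, while over all genes it called 0.948% higher and 0.868% lower. With limma-voom 0 members passed, and 0.0157% of all genes were called higher and 0.0629% lower. The groups overlapped for 7 of 7 members, whereas 2.78% of tested genes had no overlap, 1.39% with Srgn-/- higher and 1.38% with Srgn-/- lower. Without the 3 libraries with epididymis RNA the log2 fold changes were -0.24 for Fads1, 0.16 for Fads3, 0.095 for Elovl1, -0.19 for Elovl3 and -0.014 for Elovl5 (edgeR adjusted p = 0.999 each). The median log2 fold change over all 10 libraries was 0.088 over the members and -0.0014 over all tested genes. T cell markers summed to 17.2 to 23.9 CPM in Srgn-/- and 26.4 to 71.4 CPM in Srgn+/+ fat, and B cell markers to 19.6 to 29.8 CPM in Srgn-/- and 36.4 to 153.8 CPM in Srgn+/+ fat. Endothelial markers summed to 653 to 908 CPM in Srgn-/- and 606 to 806 CPM in Srgn+/+ fat, and the part of these cells in the members' values was not tested.

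**Figure D2:**
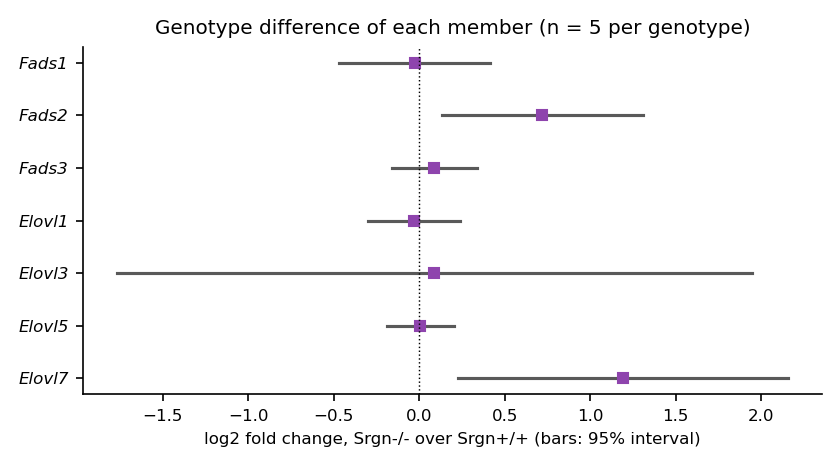
Log2 fold change of each member, Srgn-/- over Srgn+/+ (squares), with its 95% interval from edgeR (bars, n = 5 per genotype). The intervals of Fads2 and Elovl7 lie above 0 before adjustment for the number of genes tested, and Elovl3 has the widest interval, from -1.77 to 1.95.

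Ratios of members within a library do not depend on how libraries are scaled, and 6 such ratios of consecutive or related steps were compared. They were chosen with earlier results of these data known, and those with Fads2 or Elovl7 share the values given above for these genes. The log2 ratio of Fads2 to Fads1 reads averaged -1.04 ± 0.365 in Srgn-/- and -1.71 ± 0.511 in Srgn+/+ (SD, n = 5 each), a difference of 0.67, with a two-sided exact permutation p = 0.0476 and 0.143 after adjustment over the 6 ratios. The ratio was above every Srgn+/+ value in 3 of 5 Srgn-/- libraries. For Elovl7 to Elovl1 the difference was 1.28, also with 3 of 5 libraries above every Srgn+/+ value (exact permutation p = 0.0397, adjusted p = 0.143). The difference was 0.64 for Fads2 to Elovl5 (exact permutation p = 0.0873, adjusted p = 0.175) and 0.55 for Fads2 to Fads3 (p = 0.151, adjusted p = 0.226). It was -0.032 for Fads1 to Elovl5 and 0.23 for Elovl3 to Elovl1 (adjusted p = 0.929 in both exact permutation tests), and these signs turned when single libraries were left out. Without the 3 libraries with epididymis RNA the differences were 0.51 for Fads2 to Fads1, 0.96 for Elovl7 to Elovl1, 0.32 for Fads2 to Elovl5, 0.13 for Fads2 to Fads3, -0.19 for Fads1 to Elovl5 and -0.098 for Elovl3 to Elovl1. No ratio passed the adjusted threshold in either set of libraries, and the smallest p that 5 against 5 allows is 0.00794.

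The members fell into sets that varied together from animal to animal. Over the 21 pairs, 6 had an adjusted p under 0.05 for Pearson r on log2 CPM over the 10 libraries (permutation tests with 100000 resamples). Elovl3 and Elovl5 had r = 0.92 and Spearman rho = 0.90 (permutation p = 0.00047 and 0.0008, adjusted p = 0.00987 and 0.0084). Without the 2 libraries with the most extreme Elovl3, Srgn-/- 2 and Srgn+/+ 1, r was 0.85 (exact permutation p = 0.00873), and after subtraction of genotype means it was 0.92. Elovl5, with the smallest range, and Elovl3, with the widest, thus followed nearly the same order of animals.

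Fads2 and Elovl7 had r = 0.84 and rho = 0.92 (permutation p = 0.00235 and 0.00056, adjusted p = 0.0164 and 0.0084). Without Srgn-/- 3 and 5, the most extreme libraries for Fads2, r was 0.88 (exact permutation p = 0.00114). After subtraction of genotype means it was 0.74, so that the pair varied together within genotypes as well.

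Fads1 ran against Elovl1, with r = -0.90 and rho = -0.87 (permutation p = 0.00103 and 0.00213, adjusted p = 0.0108 and 0.0149). Without Srgn-/- 3 and Srgn+/+ 1, r was -0.62 (exact permutation p = 0.0937), so that it had no p under 0.05 without them. Fads1 also ran against Fads3 (r = -0.77, rho = -0.75, permutation p = 0.00765 and 0.0174, adjusted p = 0.0402 and 0.0912), and r was -0.83 without the same 2 libraries (exact permutation p = 0.0108). Leaving out Srgn+/+ 1 alone gave -0.57 for Fads1 with Fads3 (adjusted p = 0.262, exact permutation test). Without the 3 libraries with epididymis RNA r was -0.98 for Fads1 with Fads3 and -0.86 for Fads1 with Elovl1.

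Fads3 ran with Elovl1 (r = 0.71, rho = 0.71, permutation p = 0.014 and 0.0268, adjusted p = 0.0491 and 0.113) and with Elovl3 (r = 0.73, rho = 0.41, permutation p = 0.0129 and 0.247, adjusted p = 0.0491 and 0.510). Without Srgn-/- 4 and Srgn+/+ 1 these r were 0.59 and 0.42 (exact permutation p = 0.123 and 0.303), so that neither had a p under 0.05 without them. Without the 3 libraries with epididymis RNA these r were 0.90 and 0.77. Fads1 and Fads2, although neighbours in the genome and in the pathway, had r = 0.35 (rho = 0.24, permutation p = 0.318 and 0.518, adjusted p = 0.513 and 0.640). This r was -0.03 without the 3 libraries with epididymis RNA.

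**Figure D3:**
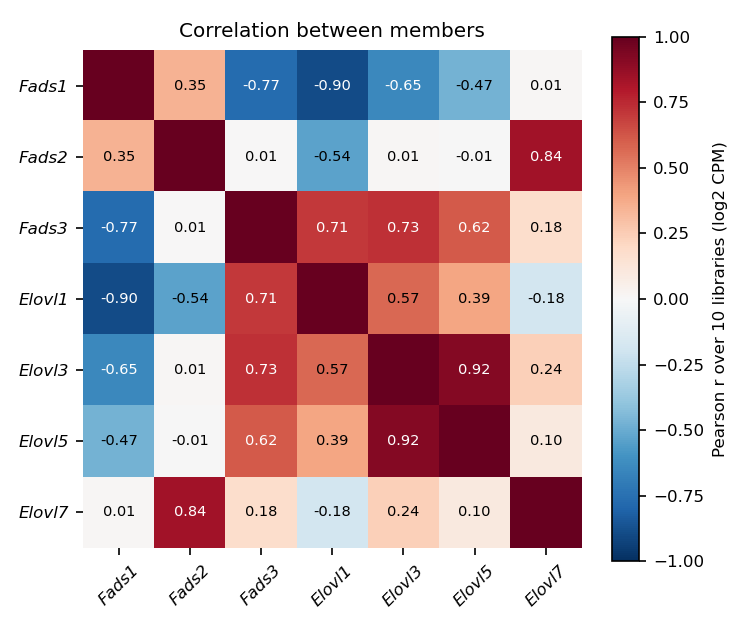
Pearson r between members over the 10 libraries (log2 CPM), coloured from -1 (blue) to 1 (red). Elovl3 with Elovl5 (0.92) and Fads2 with Elovl7 (0.84) are the strongest positive pairs, and Fads1 with Elovl1 (-0.90) the strongest negative one.

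**Figure D4:**
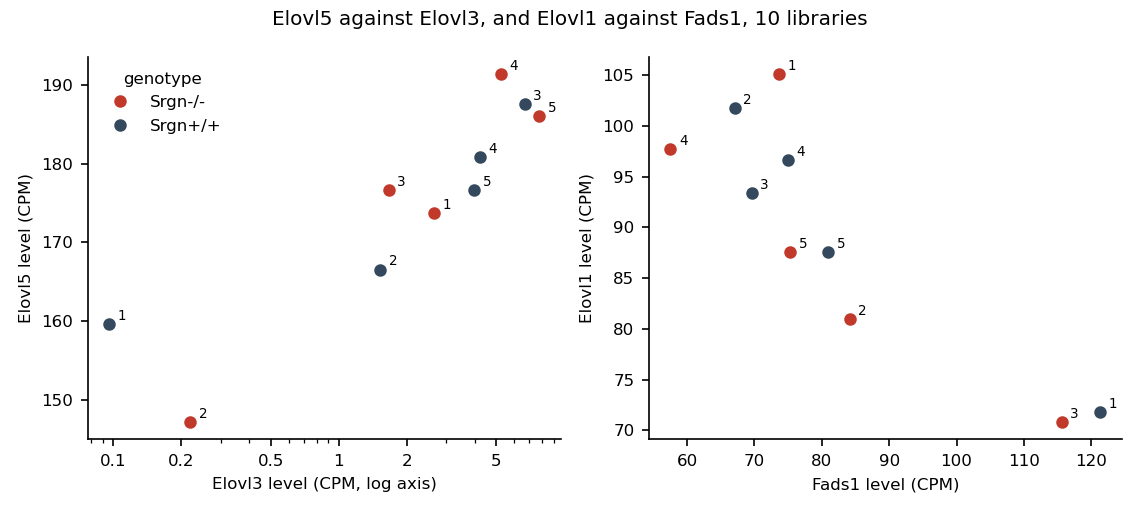
Left, Elovl5 level (CPM) against Elovl3 level (CPM, log axis); right, Elovl1 level against Fads1 level (CPM), each point 1 numbered library of Srgn-/- or Srgn+/+. The low end of the left panel holds Srgn-/- 2 and Srgn+/+ 1, and the lower right corner of the right panel holds Srgn-/- 3 and Srgn+/+ 1.

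The genes whose pattern was most like that of a member were found by Pearson r over the 10 libraries among 9895 named genes with a mean of at least 5 CPM, as a description with no test. For Fads2 they were Kcnk1, a potassium channel (r = 0.98), Ptk7, a pseudokinase of the cell surface (0.97), and Cdh1, the adhesion protein of epithelia (0.97). For Elovl7 they were Prom1, a membrane protein of apical protrusions (0.95), Iyd, an iodotyrosine deiodinase (0.93), and Ccdc153 (0.92). Cdh1 had 4.80, 15.6, 30.4, 5.23 and 19.0 CPM in Srgn-/- 1 to 5, against 3.08, 2.68, 10.4, 7.09 and 2.79 CPM in Srgn+/+ 1 to 5. Its high libraries were those of Fads2.

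A list of 20 epithelial genes, among them Cdh1, Epcam, keratins and claudins, was therefore set beside Fads2; it was chosen after these values were seen and is given without a test. Its summed level was 140, 281, 500, 159 and 294 CPM in Srgn-/- 1 to 5, against 177, 130, 197, 189 and 132 CPM in Srgn+/+ 1 to 5. Cdh1, found by its likeness to Fads2, is in the list, so that a high r with Fads2 follows in part from this choice. Over the 10 libraries r with the mean of the list was 0.95 for Fads2 and 0.73 for Elovl7, and between -0.67 and 0.52 for the other members. After subtraction of genotype means it was 0.93 for Fads2 and 0.59 for Elovl7, and without the 3 libraries with epididymis RNA r was 0.91 for Fads2 and 0.77 for Elovl7. The list was chosen to go with Fads2, which had higher values in Srgn-/-, so that counts by direction are no separate result. Of the 15 listed genes that were tested, 14 had higher values in Srgn-/-, against 49.7% of all tested genes. Of these 15, 8 had an unadjusted edgeR p under 0.05, against 12.8% of all tested genes, and 0 passed the threshold in edgeR. Among them Epcam had 18.9 ± 11.9 CPM in Srgn-/- and 5.97 ± 3.46 CPM in Srgn+/+, and Spint2, a protease inhibitor of epithelia, had 58.0 ± 22.9 CPM in Srgn-/- and 33.9 ± 3.88 CPM in Srgn+/+ (SD, n = 5 each; edgeR adjusted p = 0.276 and 0.246). Epcam and Spint2 had the smallest edgeR p of the tested genes in the list. Of the keratins, Krt8 and Krt18 had higher values in Srgn-/-. Krt19 had 50.2 ± 20.2 CPM in Srgn-/- and 48.7 ± 7.44 CPM in Srgn+/+, and Krt7 had 11.4 ± 1.88 CPM in Srgn-/- and 11.7 ± 2.63 CPM in Srgn+/+. The part of epithelial RNA in the Fads2 and Elovl7 values was not tested. Srgn-/- 2 combined a high epithelial sum and high Fads2 with an epididymis sum of 3.74 CPM. Fads2 had r = 0.61 with the epididymis markers and 0.66 with endothelial markers (rho = 0.50 and 0.68, permutation p = 0.0475 and 0.0427, adjusted p = 0.207 each). Without the 2 libraries most extreme for each list these r were 0.48 and 0.61 (exact permutation p = 0.179 and 0.114). Without all 3 libraries with epididymis RNA they were -0.18 and 0.52. The other libraries held 1.05 to 28.9 CPM of epididymis markers, so that r among them cannot tell whether Fads2 follows epididymis RNA. Mesothelial markers, from the lining of the depot, summed to 215 to 457 CPM in Srgn-/- and 262 to 525 CPM in Srgn+/+.

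**Figure D5:**
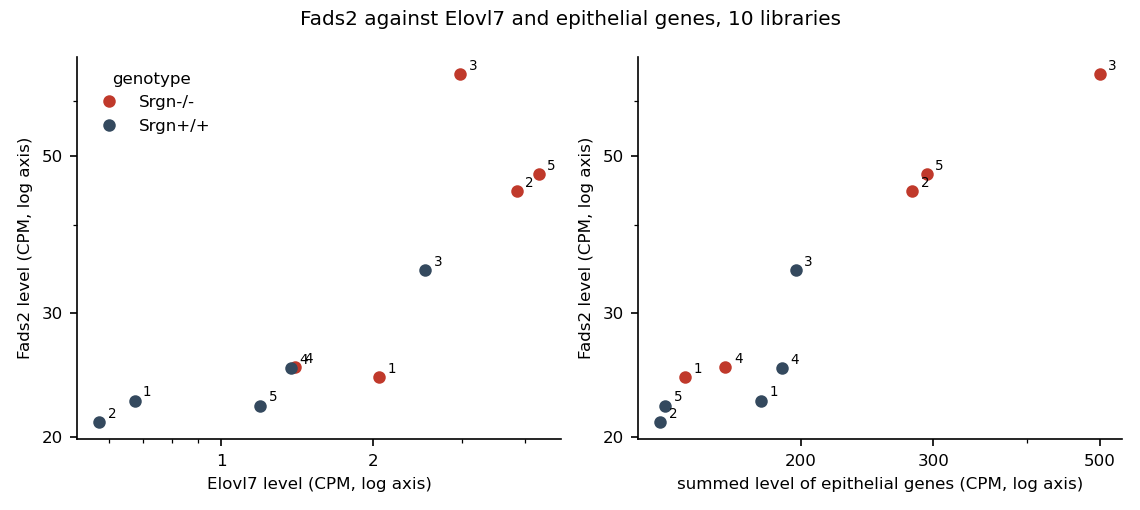
Fads2 level against Elovl7 level (left) and against the summed level of 20 epithelial genes (right), all in CPM on log axes, each point 1 numbered library of Srgn-/- or Srgn+/+. Srgn-/- 2, 3 and 5 hold the high end of both panels, followed by Srgn+/+ 3.

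The genes most like Elovl3 were Nudt7, a peroxisomal hydrolase of coenzyme A (r = 0.97), Chchd10 of mitochondria (0.96) and Slc36a2, an amino acid transporter of fat cells (0.95). For Elovl5 they were Mpp6 (0.96), Ccdc3 (0.92) and Decr1, which serves the oxidation of polyunsaturated fatty acids in mitochondria (0.92). Slc36a2 averaged 655 ± 210 CPM in Srgn-/- and 618 ± 225 CPM in Srgn+/+ (SD, n = 5 each), without a genotype difference past the threshold in edgeR (adjusted p = 0.935). Against the mean standardized level of markers of thermogenic fat cells, r was 0.70 for Elovl3 and 0.72 for Elovl5 (rho = 0.76 and 0.81, permutation p = 0.0255 and 0.0173, adjusted p = 0.207 over 35 relations). Without Srgn-/- 1 and Srgn+/+ 1 these r were 0.66 and 0.76 (exact permutation p = 0.0718 and 0.0248). Elovl3 also had r = 0.64 with macrophage markers (rho = 0.50, permutation p = 0.0446 and 0.143, adjusted p = 0.207 and 0.341). That r was 0.19 without Srgn-/- 2 and Srgn+/+ 1 (exact permutation p = 0.657) and 0.91 without the 3 libraries with epididymis RNA. Elovl1 had r = -0.67 with endothelial markers (rho = -0.68, permutation p = 0.0395 and 0.0361, adjusted p = 0.207 and 0.255), and r was -0.64 without Srgn-/- 2 and Srgn+/+ 4 (exact permutation p = 0.094). The markers of thermogenic fat cells summed to 93.1 to 248 CPM in Srgn-/- and 59.4 to 155 CPM in Srgn+/+. Ucp1, the defining uncoupling protein, had 1 to 6 reads in Srgn-/- and 5 to 9 reads in Srgn+/+ libraries, close to the level of 3 reads.

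For Fads1 the genes most alike were the noncoding RNA Snhg18 (r = 0.91), Fahd2a (0.90) and Gba2, a glucosylceramidase (0.89). For Fads3 they included March5, a mitochondrial ubiquitin ligase, and Col4a1, a basement membrane collagen (0.95 each). For Elovl1 they were Cdc42se1 (0.99), Lrrc59 (0.96) and Gnptab (0.95). Macrophage markers had r = 0.72 with Elovl1 and -0.63 with Fads1 (rho = 0.61 and -0.52, permutation p = 0.0212 and 0.0497, adjusted p = 0.207 each), and these were 0.59 and -0.50 without Srgn-/- 2 and Srgn+/+ 1. They summed to 1866 to 3627 CPM in Srgn-/- and 1776 to 6089 CPM in Srgn+/+. The high Fads1 libraries, Srgn-/- 3 and Srgn+/+ 1, had the lowest macrophage sums of their genotypes. Srgn-/- 2 was close to Srgn-/- 3, with 1891 against 1866 CPM. By the mean standardized level used for r, Srgn-/- 2 was the lower of them (-1.03 against -0.90). The part of macrophage RNA in these values was not tested. Of the 35 relations between members and marker lists, 0 passed after adjustment and 8 had an unadjusted permutation p under 0.05.

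Other genes of the pathway did not pass in edgeR either. Of 82 listed genes that are no members, 76 were tested, 43 with higher and 33 with lower values in Srgn-/-, and 0 passed in each direction. An unadjusted edgeR p under 0.05 was found for 10, against 12.8% of all tested genes, and the groups did not overlap for 3, against 2.78%. The median log2 fold change was 0.043.

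Among relatives of the members, Scd1, which makes monounsaturated fatty acids, had 25197 ± 3482 CPM in Srgn-/- and 25789 ± 7029 CPM in Srgn+/+ (adjusted p = 0.957), and its sign turned with the scaling. Elovl6, which lengthens palmitate, had 11.8 ± 3.82 CPM in Srgn-/- and 9.67 ± 2.13 CPM in Srgn+/+ (adjusted p = 0.617). Elovl4 had 5.03 ± 3.11 CPM in Srgn-/- and 4.63 ± 0.569 CPM in Srgn+/+ (SD, n = 5 each; edgeR adjusted p = 0.921). Of the delta-9 and sphingolipid desaturases, 4 of 6 tested had higher values, among them Degs1, the ceramide-forming desaturase, at 395 ± 39.1 CPM in Srgn-/- and 353 ± 63.3 CPM in Srgn+/+. Degs2 averaged 2.26 ± 2.07 CPM in Srgn-/- and 1.07 ± 0.483 CPM in Srgn+/+, and Scd3 averaged 2.03 ± 1.19 CPM in Srgn-/- and 2.64 ± 0.943 CPM in Srgn+/+. The log2 fold change of Degs2 was 1.07 with all libraries, 0.35 without Srgn-/- 3 and 0.15 without the 3 libraries with epididymis RNA. In that last set it was 0.025 for Elovl6, against 0.29 with all libraries, -0.35 for Elovl4, against 0.11, and -0.23 for Scd3, against -0.40.

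Enzymes that complete each elongation cycle had lower values for 4 of 6. Hacd3, a dehydratase of the cycle, had 65.9 ± 8.31 CPM in Srgn-/- and 54.4 ± 6.70 CPM in Srgn+/+, while its relative Hacd4 had 20.6 ± 2.92 CPM in Srgn-/- and 27.2 ± 7.37 CPM in Srgn+/+ (SD, n = 5 each; edgeR adjusted p = 0.347 and 0.370). Tecr, the last reductase of the cycle, had 696 ± 144 CPM in Srgn-/- and 613 ± 127 CPM in Srgn+/+. Cytochrome b5 and its reductases, which carry electrons to desaturases, had higher values for 5 of 6, with a median log2 fold change of 0.13. Cyb5b had 439.7 ± 26.7 CPM in Srgn-/- and 366.7 ± 77.3 CPM in Srgn+/+, Cyb5a 557 ± 50.7 CPM in Srgn-/- and 501 ± 75.3 CPM in Srgn+/+, and Cyb5r3 692 ± 38.0 CPM in Srgn-/- and 638 ± 72.9 CPM in Srgn+/+. The edgeR adjusted p was 0.461 for Cyb5b, 0.598 for Cyb5a and 0.637 for Cyb5r3, and the groups overlapped for every gene of this list. The summed level of this list was 1705 to 1836 CPM in Srgn-/- and 1476 to 1672 CPM in Srgn+/+. This sum was picked because the sums of all other pathway lists overlapped between genotypes, and it was not tested. Of single tested genes 2.78% had no overlap, and no such share is given for sums of lists. The sum also adds amplicons that differ in efficiency, so that no genotype difference is drawn from it.

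Of 12 regulators, 7 had higher values. Scap, the escort of the sterol-regulated transcription factors, had 31.2 ± 2.85 CPM in Srgn-/- and 38.3 ± 2.74 CPM in Srgn+/+, without overlap of the groups (log2 fold change -0.29, edgeR adjusted p = 0.258). Insig2, which retains Scap in the endoplasmic reticulum, had 26.0 ± 2.31 CPM in Srgn-/- and 20.6 ± 6.03 CPM in Srgn+/+, and Srebf2 had 30.9 ± 5.18 CPM in Srgn-/- and 26.3 ± 3.39 CPM in Srgn+/+ (SD, n = 5 each). The log2 fold change of Srebf2 was 0.23 with all libraries and 0.12 without the 3 libraries with epididymis RNA.

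Downstream, 8 of 13 genes of acyl-CoA supply and phospholipid incorporation had higher values, but those with the smallest p were lower. Mboat7, which places arachidonic acid in phosphatidylinositol, had 27.7 ± 2.95 CPM in Srgn-/- and 34.1 ± 2.84 CPM in Srgn+/+, and Lpcat1 had 38.5 ± 2.59 CPM in Srgn-/- and 49.1 ± 10.6 CPM in Srgn+/+ (SD, n = 5 each; edgeR adjusted p = 0.276 and 0.314). Acsl5 had 62.9 ± 14.2 CPM in Srgn-/- and 80.6 ± 16.8 CPM in Srgn+/+. In peroxisomal shortening 4 of 9 had higher values, with Scp2 at 111.5 ± 6.82 CPM in Srgn-/- and 92.7 ± 7.02 CPM in Srgn+/+, without overlap (edgeR adjusted p = 0.247). Hsd17b4 had 579 ± 96.5 CPM in Srgn-/- and 701 ± 91.2 CPM in Srgn+/+, and Acaa1a had 99.98 ± 10.1 CPM in Srgn-/- and 115.6 ± 15.2 CPM in Srgn+/+.

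Eicosanoid synthesis, which draws on the products of Fads1, had 9 of 18 genes with higher and 9 with lower values. Ptges2, a prostaglandin E synthase, had 24.1 ± 3.92 CPM in Srgn-/- and 17.8 ± 2.80 CPM in Srgn+/+, and Alox12, a lipoxygenase, had 4.79 ± 2.01 CPM in Srgn-/- and 2.79 ± 0.785 CPM in Srgn+/+ (SD, n = 5 each; edgeR adjusted p = 0.270 and 0.359). Ptgds, a prostaglandin D synthase, had 42.8 ± 42.9 CPM in Srgn-/- and 12.1 ± 6.21 CPM in Srgn+/+, with 116.6 CPM in Srgn-/- 5. Its log2 fold change was 1.82 with all libraries, 1.001 without Srgn-/- 5 and 0.81 without the 3 libraries with epididymis RNA. Of the ceramide synthases, 2 of 4 tested had higher values. Cers2 had 242 ± 13.6 CPM in Srgn-/- and 221 ± 13.6 CPM in Srgn+/+, Cers5 had 15.5 ± 3.62 CPM in Srgn-/- and 11.3 ± 3.96 CPM in Srgn+/+, and Cers6 had 19.3 ± 4.27 CPM in Srgn-/- and 24.2 ± 2.58 CPM in Srgn+/+ (SD, n = 5 each; edgeR adjusted p = 0.499, 0.438 and 0.387). The log2 fold change of Cers6 was -0.32 with all libraries and -0.20 without the 3 libraries with epididymis RNA.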

How the data were processed

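Total RNA of epididymal fat from 10 mice was read with the Ion AmpliSeq mouse transcriptome kit on an Ion S5 XL sequencer, per the labels' protocols. The authors deposited raw counts, whole reads per amplicon with 1 amplicon per gene. The authors also deposited reads-per-million (RPM) values, which equal the counts scaled by library total, with a largest difference of 0.000591 RPM. The genome build is mm9, per the submitters' processing notes; for the aligner and the counter, the sources used here name nothing.

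Counts were analysed in R 4.3.3 with edgeR 4.0.16: filterByExpr (minimum count 10, total 15), TMM factors, a robust quasi-likelihood fit of genotype alone with all 10 libraries, two-sided, Benjamini-Hochberg over 12719 genes, threshold 0.05. SE is the log2 fold change over the square root of F. Log2 CPM for correlations has a prior count of 2, and 0.5 was added to counts in ratios. Permutation tests were run in Python 3.11.15. Alternatives used DESeq2 1.42.0, limma 3.58.1, other scaling, no filter, RPM values and single libraries left out. The fit and the permutation tests were tested on simulated data.

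All members, up to 3 genes per pathway list with the smallest p, Scd1, Elovl6, and for each member the 3 genes of highest r were named. For Fads3, 1 of these is not reported here. Members, lists and ratios were chosen with earlier results of these data known. Libraries are numbered in deposit order within genotype, which pairs no animals. Libraries carry no batch labels here. Counts of reads have no molecular identifiers, so floors (3 reads) cover counting error only. Fads1, Fads2 and Fads3 are related in sequence, and the specificity of their amplicons was not tested.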

Additional observations from a re-analysis of the deposited data

Results flagged for a closer look

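Groups of 5 libraries of 1 genotype were examined for Srgn, the members, the named pathway genes and the ratios of members. Other named genes were not examined. Of these 82 groups, 10 held a library far from the other 4 by Dixon's test. Chance flags about 1 in 20 groups. Among the members this was Fads1 alone, with 121.366 CPM in Srgn+/+ 1 and 67.1 to 80.9 CPM in the other Srgn+/+ libraries. Srgn+/+ 1 was also the lowest of its genotype for Degs1 (240.229 CPM, others 374 to 388), Tecr (394.992 CPM, others 633 to 713) and Acsl5 (51.7802 CPM, others 82.8 to 93.8). Srgn had 1.31164 CPM in Srgn-/- 5, against 0 to 0.294 CPM in the other Srgn-/- libraries, and Ptgds had 116.627 CPM in the same library (others 10.9 to 37.6). Degs2 stood at 5.83407 CPM in Srgn-/- 3 (others 0.638 to 2.08) and Cers6 at 26.8614 CPM in Srgn-/- 1 (others 16.7 to 18.1). Alox12 had 4.16231 CPM in Srgn+/+ 3 (others 2.29 to 2.69) and Hacd4 had 39.9434 CPM in Srgn+/+ 5 (others 21.3 to 26.4).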

How the results depend on the processing

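Fads2, Elovl7 and Fads3 kept higher values in Srgn-/- under all 19 alternatives, with log2 fold changes of 0.32 to 0.86, 0.82 to 1.62 and 0.0081 to 0.16, and none of the 3 passed under any. With 1 library left out, log2 fold changes ran from -0.19 to 0.15 for Fads1, -0.10 to 0.041 for Elovl1, -0.44 to 0.53 for Elovl3, -0.029 to 0.062 for Elovl5, -0.31 to 0.32 for Elovl4 and -0.11 to 0.14 for Scd1. The log2 ratios ran from -0.16 to 0.15 for Fads1 to Elovl5 and -0.62 to 0.95 for Elovl3 to Elovl1, genes called lower from 1 to 2, and past pairs of members from 3 to 5. Upper-quartile factors gave 0.0018 for Fads1 and 0.0022 for Elovl1. Total counts alone gave 0.026 for Fads1, 0.020 for Elovl1, 0.015 for Scd1 and 3 past pairs of members. RPM values with a pseudocount of 1 or 0.1 gave 0.016 and 0.016 for Fads1, 0.013 and 0.013 for Elovl1, 0.039 and 0.039 for Scd1, and -0.0059 and -0.038 for Elovl4. With limma-voom, Fads1 had 0.072, Scd1 0.050 and Elovl4 -0.042, with 2 genes higher and 8 lower; DESeq2 called 118 higher and 108 lower. Without the filter Elovl5 had -0.0030 and 3 genes were lower. Without the 3 libraries with epididymis RNA, Elovl1 had 0.095, Elovl3 -0.19, Elovl5 -0.014, Elovl4 -0.35 and the Elovl3 to Elovl1 ratio -0.098. The cause of these shifts was not tested. Total counts alone moved the median of all genes to 0.050. Fads2 with Elovl7, Elovl3 with Elovl5 and Fads1 with Elovl1 kept an adjusted p under 0.05 in all 12 alternatives; Fads1 with Fads3, Fads3 with Elovl1 and Fads3 with Elovl3 lost it in 5, 10 and 9. Depth limits Elovl3 and Elovl7, whose lowest libraries held 1 and 6 reads. No paired analysis was possible because the labels give no number that is shared between genotypes.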

Other observations

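Elovl2, the elongase that acts after Elovl5 on the longest polyunsaturated chains, had too few reads to be tested and was chosen after its values were seen. It had 0.098, 1.21, 2.62, 0.510 and 3.17 CPM in Srgn-/- 1 to 5, against 0.385, 0.382, 0.711, 2.06 and 0.531 CPM in Srgn+/+ 1 to 5. The 3 Srgn-/- libraries with high Fads2 were the highest for Elovl2 within their genotype, and Srgn+/+ 4, which held epididymis RNA, was the highest Srgn+/+ library.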
